A study of Arabidopsis thaliana with 48 samples.

Results

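The genes described here are 10 Arabidopsis thaliana genes of flavonoid and anthocyanin synthesis, chosen by identifier from the 28496 identifiers counted in each library. They are the early enzymes CHS (AT5G13930), CHI (AT3G55120), F3H (AT3G51240) and F3'H (AT5G07990), the flavonol enzyme FLS1 (AT5G08640), the late genes DFR (AT5G42800), LDOX (AT4G22880) and TT19 (AT5G17220), and the regulators MYB75 (AT1G56650) and MYB12 (AT2G47460). In the RefSeq annotation of TAIR10.1, CHS spans chr5:4488476-4490264, CHI chr3:20430059-20431597, F3H chr3:19025192-19026872, F3'H chr5:2560328-2563137 and FLS1 chr5:2803833-2805606. DFR spans chr5:17164093-17166032, LDOX chr4:12004726-12006209, TT19 chr5:5658416-5659661, MYB75 chr1:21233555-21235292 and MYB12 chr2:19476326-19479597.

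Transcripts were counted with QuantSeq, which reads the 3' end of polyadenylated RNA, in whole seedlings of 8 lines that each carried a construct switched on by β-estradiol. The line names refer to CNA and PHB, class III homeodomain leucine zipper (HD-ZIPIII) transcription factors, and the lines carry the names CNA and PHB, CNA-SDdelta and PHB-SDdelta, CNA-PpHOX32 and CNA-SmHOX32, and CNA-KnC3HDZ and CNA-KnC3HDZ_8m. T2 seedlings were sprayed on day 9 with 50 µM β-estradiol in DMSO and Silwet L-77 (induced) or with the DMSO and Silwet L-77 alone (mock), and all were harvested 24 h later, on day 10. With 3 libraries in each of 16 groups, 48 were analysed. The meaning of the line suffixes, the promoter behind each construct and the number of transformants in a line are not given in the sources used here. No line without a construct was analysed here, so the effect of a construct and that of β-estradiol itself cannot be told apart.

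Flavonoids are made from the phenylpropanoid coumaroyl-CoA. CHS joins it with malonyl-CoA to a chalcone, CHI closes the ring, F3H and F3'H hydroxylate the product, and FLS1 turns the dihydroflavonols into flavonols, the ultraviolet screens of leaves. DFR and LDOX compete for the same dihydroflavonols and lead to the red anthocyanins, which TT19, a glutathione S-transferase, helps to carry to the vacuole. In seedlings the early enzymes are switched on by MYB12 and its relatives and by the light-signalling factor HY5, and the late ones by MYB75 with bHLH partners and the WD40 protein TTG1.

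The promoters of 4 members and of 1 gene beside them are given because these genes are described most closely below. CHS and FLS1 were the 2 of 7 tested members called lower in the mean over the lines, where 28.5% of all tested genes were called. That count of members is near the share of all genes. F3H was the member called in a single line, PHB, where 9.43% of all tested genes were called. Each of these calls was lost in some alternative fits. DFR is a late gene that stayed at the limit of detection. UGT78D2, which encodes a flavonoid 3-O-glucosyltransferase, fell in 5 lines. Each sequence is the 250 bases before the annotated gene start, read 5′ to 3′ on the strand of the gene from RefSeq's TAIR10.1 assembly, with matches to the motifs searched in capitals.
CHS promoter, chr5:4488226-4488475, plus strand: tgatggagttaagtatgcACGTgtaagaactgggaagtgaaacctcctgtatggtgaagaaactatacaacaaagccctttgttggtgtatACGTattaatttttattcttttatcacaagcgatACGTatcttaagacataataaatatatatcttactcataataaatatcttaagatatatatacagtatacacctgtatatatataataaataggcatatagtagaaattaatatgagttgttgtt
F3H promoter, chr3:19024942-19025191, plus strand: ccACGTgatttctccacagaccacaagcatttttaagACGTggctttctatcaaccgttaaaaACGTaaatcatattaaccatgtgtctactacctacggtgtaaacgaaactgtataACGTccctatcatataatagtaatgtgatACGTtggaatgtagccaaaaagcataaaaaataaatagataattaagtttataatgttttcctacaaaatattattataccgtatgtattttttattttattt
FLS1 promoter, chr5:2803583-2803832, plus strand: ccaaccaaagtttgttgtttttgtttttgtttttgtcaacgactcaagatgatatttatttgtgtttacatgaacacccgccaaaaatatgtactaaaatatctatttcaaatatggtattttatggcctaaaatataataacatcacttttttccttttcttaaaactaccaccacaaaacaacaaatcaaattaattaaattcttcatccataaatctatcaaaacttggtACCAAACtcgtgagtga
DFR promoter, chr5:17166033-17166282, minus strand: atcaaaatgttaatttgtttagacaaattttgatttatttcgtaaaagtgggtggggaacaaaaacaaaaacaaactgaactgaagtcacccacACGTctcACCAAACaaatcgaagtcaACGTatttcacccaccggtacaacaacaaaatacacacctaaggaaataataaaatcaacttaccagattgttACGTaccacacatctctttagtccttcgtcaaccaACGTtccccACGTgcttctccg
UGT78D2 promoter, chr5:5609590-5609839, minus strand: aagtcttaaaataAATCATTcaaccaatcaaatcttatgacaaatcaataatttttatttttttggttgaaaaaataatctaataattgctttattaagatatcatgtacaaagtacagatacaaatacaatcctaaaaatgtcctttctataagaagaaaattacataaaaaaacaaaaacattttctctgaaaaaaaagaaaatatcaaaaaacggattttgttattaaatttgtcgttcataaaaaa
Both strands were searched for ACGT, the core of light-responsive elements bound by HY5, for the G-box CACGTG, which contains that core, for the MYB element in the spelling ACCTAAC or one of its variants, which are ACCTACC as well as ACCAAAC and further ACCAACC, and for AATGATT, the middle of the sequence bound by HD-ZIPIII proteins. The capitals mark ACGT in CHS, F3H and DFR, the MYB element in FLS1 and DFR, and AATGATT, read on the other strand, in UGT78D2. ACGT was present in 4 of the 10 members' promoters (CHS, F3H, DFR and MYB12), against 44.1% of 27443 promoters of the same length, and the G-box in the same 4, against 6.49%. The MYB element was present in 3 members (FLS1, DFR and MYB75), against 13.7%. AATGATT was in none of the 10, against 11.1% of all promoters, and its 1 match in the UGT78D2 promoter began 237 bases before the gene start. Each match is a stretch of letters only, and its absence from these windows says nothing of binding elsewhere.

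Totals per library ran from 1808765 counts (PHB induced replicate 3) to 37222617 (CNA-KnC3HDZ induced replicate 2). Levels are given in CPM, counts scaled to a library total of 1000000 after TMM normalisation, and a floor of 3 counts corresponded to 0.08 to 1.5 CPM. A 3' count does not grow with transcript length, so levels of different genes were compared on the CPM scale. A gene is called when the Benjamini-Hochberg adjusted p of edgeR's quasi-likelihood test, fitted to all 48 libraries and adjusted over 18909 tested genes, is under 0.05. As a check of the labels, the CNA gene was called higher after induction in 5 of the 6 lines named for CNA, the exception being CNA-SDdelta, and the PHB gene was called higher in PHB and PHB-SDdelta. The labelled tissue held its markers: the 10 photosynthetic genes and the 10 root genes were all tested, whereas 6 of 7 seed coat genes were too low to test. The seed coat list summed to 0 to 3.84 CPM in mock and 0 to 2.3 CPM in induced libraries. Not every root gene stood above the seed coat genes: EXPA7 averaged 0.298 CPM over the 48 libraries, next to 0.363 CPM for TT10, the seed coat gene that was tested.

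The flavonoid genes were low in these seedlings. All 10 together held 13511 counts over the 48 libraries, a median of 38.1 CPM per library (range 8.28 to 82.6). CHI, which isomerises chalcone, gave 68.8% of those counts, and the 4 early genes gave 95.3%, against 1.22% for DFR, LDOX and TT19. CHI was detected in all 48 libraries, F3H in 45, F3'H in 41, CHS in 35 and FLS1 in 31. By contrast DFR was detected in 10 libraries, TT19 in 14, MYB75 in 15, LDOX in 16 and MYB12 in 23. The mean level over the 48 libraries was 26.6 ± 12 CPM for CHI (SD), 6.42 ± 5.7 for F3H, 2.13 ± 2.8 for CHS, 1.8 ± 1.6 for F3'H and 1 ± 1.5 for FLS1. From F3H downwards the order of neighbours lies within their spread, and the other 5 members averaged under 0.31 CPM each. DFR, LDOX and MYB75 did not pass the filter on low counts, so 7 of the 10 members were tested. The reads come from whole seedlings, in which fewer cells of a type and less RNA per cell cannot be told apart.

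**Figure D1:**
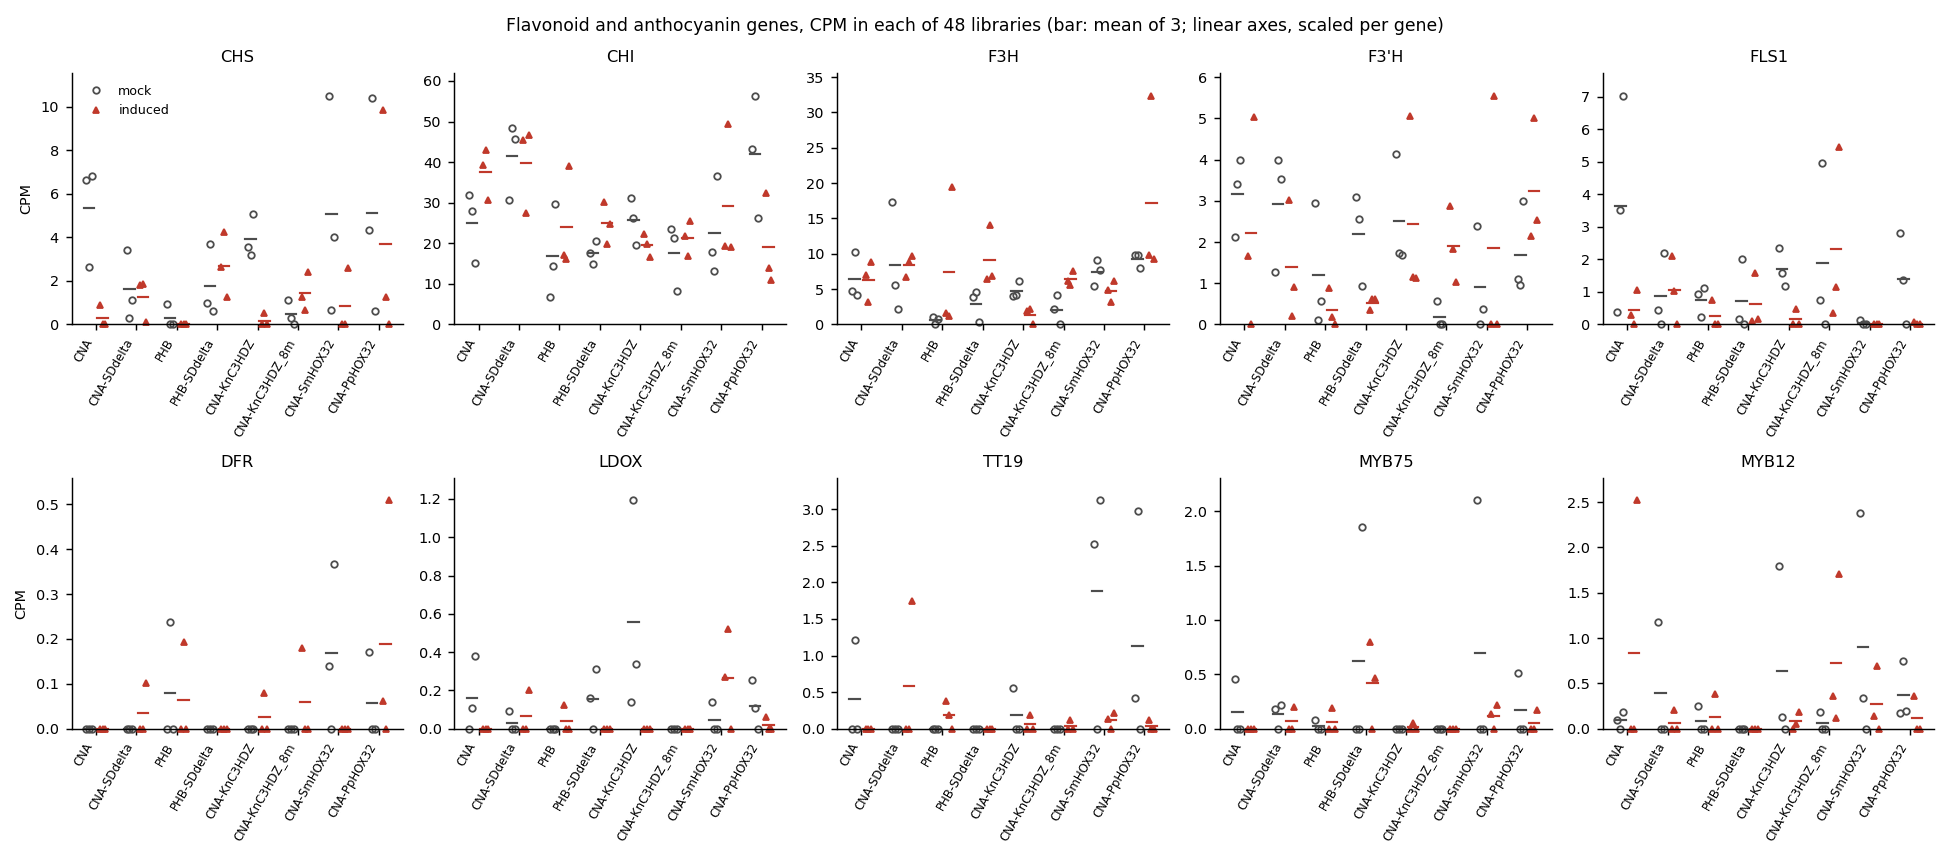
CPM of each of the 10 members in all 48 libraries by line (open circles mock, red triangles induced, bars the mean of 3 libraries, linear axes scaled per gene). CHI lies between 6.75 and 56.3 CPM in every library, whereas DFR never exceeds 0.509 CPM and no regulator exceeds 2.52 CPM.

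CHS, which encodes chalcone synthase, the entry enzyme of the pathway, had a lower induced mean in 6 of 8 lines, and in 2 lines its groups did not overlap. Groups of 3 that do not overlap were frequent among all tested genes: 24.9% in CNA, 22.7% in CNA-SDdelta, 25.4% in PHB and 29.4% in PHB-SDdelta, then 17.2% in CNA-PpHOX32, 17.8% in CNA-SmHOX32, 27% in CNA-KnC3HDZ_8m and 24.2% in CNA-KnC3HDZ. Of the 7 tested members 3 were apart in CNA-KnC3HDZ, 2 in PHB-SDdelta and in CNA-KnC3HDZ_8m, 1 in CNA and in PHB, and 0 in the other 3 lines, so the counts of 0 to 2 are near or below those shares and 3 of 7 is above its share, which was not tested. In CNA it stood at 6.63, 2.63 and 6.84 CPM in the 3 mock libraries and at 0.902, 0 and 0 CPM in the induced ones. Every mock library of that line was above every induced one. In CNA-KnC3HDZ the mock libraries held 3.58, 3.18 and 5.08 CPM and the induced ones 0, 0.534 and 0 CPM. The groups were again apart, yet neither line's difference was called: log2 −3.89 ± 1.75 (SE, adjusted p = 0.187) in CNA and −4.02 ± 1.71 (adjusted p = 0.328) in CNA-KnC3HDZ. With only the libraries of CNA-KnC3HDZ in the fit, CHS was called lower there.

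In the other lines the CHS groups overlapped. CNA-SmHOX32 ran from 10.5, 0.68 and 4.04 CPM in mock to 0, 0 and 2.61 CPM in induced libraries. CHS was called lower in that line once induced replicate 3 was left out, but the remaining induced libraries are at 0, so that fitted response is not a measurement. CNA-PpHOX32 held 4.35, 10.4 and 0.6 CPM in mock and 9.83, 1.25 and 0 CPM in induced libraries, so single libraries of both groups were high. CNA-SDdelta gave 3.44, 0.319 and 1.11 CPM in mock and 1.81, 1.85 and 0.102 CPM in induced libraries. PHB was near 0 throughout, with 0.929, 0 and 0 CPM in mock and no count in any induced library, which allows up to 3 counts per library. The remaining 2 lines had higher means after induction: 2.63, 4.25 and 1.24 CPM against 0.975, 3.71 and 0.62 CPM in mock for PHB-SDdelta, and 1.26, 0.684 and 2.39 CPM against 1.13, 0.275 and 0 CPM in mock for CNA-KnC3HDZ_8m. None of these 6 differences was called.

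CHI, chalcone isomerase, was the best measured member and gave no call in any line. Its group means ran from 17 ± 12 CPM (SD, n = 3) in PHB mock to 41.9 ± 15 CPM in CNA-PpHOX32 mock, and its log2 difference from −1.12 to 0.59 with an SE of 0.45 to 0.46. CNA-PpHOX32 showed the largest difference, from 43.3, 56.3 and 26.2 CPM in mock to 32.4, 13.8 and 11 CPM in induced libraries. The lowest mock library was below the highest induced one, so the groups overlapped. The log2 difference there was −1.12 (95% interval −2.05 to −0.19, adjusted p = 0.154), and CHI was called lower in that line when induced replicate 1 was left out.

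F3H, flavanone 3-hydroxylase, was the only member called in a single line, PHB, where it was higher after induction. The mock libraries of PHB held 1.01, 0 and 0.746 CPM and the induced ones 1.63, 1.16 and 19.5 CPM. All induced libraries lay above the mock ones, but replicates 1 and 2 only just, and replicate 3, with 39 counts of F3H, is the smallest library of the series. The log2 difference was 3.54 ± 1.1 (SE, adjusted p = 0.0269). Without that library it was 1.22 (adjusted p = 0.665), and the call was also lost without mock replicate 2 (2.90, adjusted p = 0.158) or mock replicate 3 (3.63, adjusted p = 0.0786), after thinning every library to the smallest total (4.17, adjusted p = 0.14), with a replicate block within lines (3.17, adjusted p = 0.154) and with only the PHB libraries in the fit. It was 1 of 7 tested members to be called in PHB, where 9.43% of all tested genes were called.

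In PHB-SDdelta F3H stood at 3.9, 4.57 and 0.31 CPM in mock and 6.41, 14.1 and 6.84 CPM in induced libraries, and in CNA-KnC3HDZ_8m at 2.17, 4.13 and 0 CPM against 6.12, 5.59 and 7.51 CPM. In both lines every induced library was above every mock one, without a call (log2 1.62 ± 0.99, adjusted p = 0.484, and 1.58 ± 1.00, adjusted p = 0.507). CNA-KnC3HDZ went the other way, with 3.99, 4.11 and 6.09 CPM in mock and 1.96, 2.13 and 0 CPM in induced libraries (log2 −1.72 ± 0.99, adjusted p = 0.713). The highest single value, 32.3 CPM, was in CNA-PpHOX32 induced replicate 2, whose fellow replicates held 9.83 and 9.33 CPM, next to 9.81, 9.77 and 8 CPM in mock. In CNA, CNA-SDdelta and CNA-SmHOX32 the groups overlapped and the log2 difference lay between −0.66 and −0.01.

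F3'H, the hydroxylase that sets the second hydroxyl group of quercetin and cyanidin precursors, was not called in any line. Its groups were apart in PHB-SDdelta, at 3.09, 2.57 and 0.929 CPM in mock and 0.344, 0.607 and 0.622 CPM in induced libraries, and in CNA-KnC3HDZ_8m, at 0.567, 0 and 0 CPM in mock and 2.88, 1.82 and 1.02 CPM in induced ones. The directions were opposite, with log2 −2.05 ± 1.52 (adjusted p = 0.626) and 2.92 ± 1.60 (adjusted p = 0.392). FLS1, flavonol synthase, was apart in CNA-KnC3HDZ, with 2.34, 1.59 and 1.19 CPM in mock and 0, 0.48 and 0 CPM in induced libraries, and not called there (log2 −3.01 ± 1.8, adjusted p = 0.761). In CNA it ran from 0.369, 3.51 and 7.03 CPM in mock to 0.301, 0 and 1.05 CPM in induced libraries, which overlap. CNA-PpHOX32 had 2.82, 1.38 and 0 CPM in mock and a single FLS1 count over its 3 induced libraries, a group at the floor, so no fold is given.

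Of the late genes, DFR and LDOX barely rose above single reads, while TT19 did so in some libraries. DFR, the first enzyme committed to anthocyanins, held 17 counts in all, 7 in mock and 10 in induced libraries, and no library had more than 3. LDOX, which makes the coloured anthocyanidin, held 32 counts, 23 of them in mock, and exceeded 3 counts in 1 library, CNA-KnC3HDZ mock replicate 2 (9 counts, 1.19 CPM). The mock libraries of that line held 1, 9 and 2 LDOX counts and its induced libraries 0, so the groups were apart, but LDOX was not tested. TT19, the transferase, held 116 counts and exceeded 3 counts in 8 libraries, 6 mock and 2 induced. Its highest levels were 3.12 and 2.52 CPM in CNA-SmHOX32 mock replicates 3 and 1, 2.97 CPM in CNA-PpHOX32 mock replicate 2 and 1.74 CPM in CNA-SDdelta induced replicate 3, and each of those groups also held a library at 0. TT19 was tested and not called in any line, its smallest adjusted p being 0.253 in CNA-SmHOX32. For DFR no response could be detected at this depth, which does not show that there was none.

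Of the regulators, MYB75, the R2R3-MYB activator of anthocyanin genes, held 54 counts and exceeded 3 counts in 5 libraries, the highest being CNA-SmHOX32 mock replicate 1 at 15 counts (2.1 CPM). MYB12, the activator of CHS and FLS1, held 99 counts and exceeded 3 counts in 8 libraries, 4 mock and 4 induced, with a highest value of 2.52 CPM in CNA induced replicate 3. The 3 highest TT19, MYB75 and MYB12 libraries included CNA-SmHOX32 mock replicate 1 for all 3 genes. MYB12 was tested and not called in any line, its smallest adjusted p being 0.417.

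Beside the single call in PHB, 0 of the 7 tested members were called in the other 7 inductions. Of all tested genes 10.1% were called in CNA-SmHOX32, 8.01% in CNA and 7.03% in PHB-SDdelta. CNA-KnC3HDZ_8m had 7.01%, CNA-PpHOX32 5.48%, CNA-SDdelta 4.8% and CNA-KnC3HDZ 3.3%. At those shares a count of 0 or 1 among 7 genes is near the background. At an unadjusted p under 0.05, 1 member passed in CNA, CNA-SDdelta, PHB and CNA-KnC3HDZ, 2 in CNA-PpHOX32 and 0 in 3 lines. The share of all tested genes at that unadjusted threshold is not given here. These counts can therefore not be set against the shares above, which are for adjusted p. The median log2 difference of the 7 tested members ran from −1.72 in CNA-KnC3HDZ to 1.58 in CNA-KnC3HDZ_8m, next to −0.08 to 0.08 for all tested genes. These medians include fitted values of groups at the floor, which depend on the prior count.

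**Figure D2:**
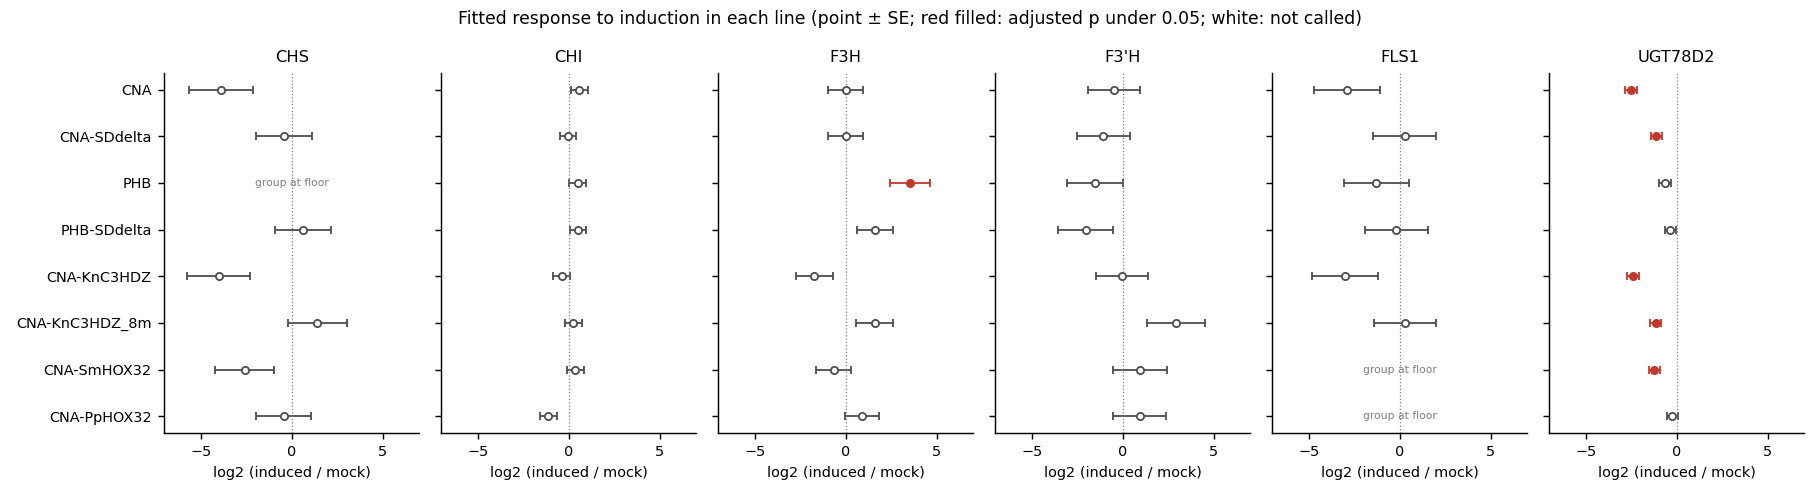
Log2 difference between induced and mock seedlings in each of the 8 lines for the 5 best detected members and UGT78D2 (points with SE, red where called, and no point where a group had all 3 libraries at or under 3 counts). F3H in PHB is the only red point among members, at 3.54, while UGT78D2 is called in 5 lines, down to −2.53.

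Whether the lines differed in their response was tested as an interaction, and no member was called in any of the 7 comparisons. The share of all tested genes called was 1.44% for PHB minus CNA, 0.106% for CNA-SDdelta minus CNA, 0.111% for PHB-SDdelta minus PHB, 1.53% for CNA-KnC3HDZ minus CNA, 3.93% for CNA-KnC3HDZ_8m minus CNA-KnC3HDZ, 2.74% for CNA-SmHOX32 minus CNA and 0.783% for CNA-PpHOX32 minus CNA. The response of CHS was higher in CNA-KnC3HDZ_8m than in CNA-KnC3HDZ by 5.41 ± 2.33 on the log2 scale (SE), which was not called (adjusted p = 0.29). For F3H the same pair gave 3.30 ± 1.41 (adjusted p = 0.282). A single test over all 8 lines called 8.92% of genes and 0 of the members, with adjusted p = 0.176 for F3H and 0.4 for CHS. DESeq2's likelihood ratio test called F3H in that comparison.

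Averaged over the 8 lines, CHS and FLS1 were called lower after induction, in a comparison that called 28.5% of all tested genes. A count of 2 among 7 tested members is near that share, so it is not read as a result about the members. CHS averaged 2.96 ± 3.1 CPM in the 24 mock and 1.31 ± 2.1 CPM in the 24 induced libraries (SD), and it was at 0 in 3 mock and 10 induced libraries. FLS1 averaged 1.38 ± 1.8 CPM in mock and 0.608 ± 1.2 CPM in induced libraries, and it was at 0 in 6 and 11 of them. The mean log2 response was −1.71 ± 0.60 for CHS (SE, adjusted p = 0.0244) and −1.73 ± 0.67 for FLS1 (adjusted p = 0.0448), and 6 of 8 lines had a lower induced mean for each. Both values include groups with no count at all, for which a fitted response is not a measurement. Over the 7 lines with both groups above the floor CHS gave −1.33 (adjusted p = 0.0963), and over 6 such lines FLS1 gave −1.15 (adjusted p = 0.272).

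With 1 response shared by the 8 lines, a model that can be fitted with groups at 0, neither gene was called: CHS gave −1.44 ± 0.68 (adjusted p = 0.118) and FLS1 −1.57 ± 0.69 (adjusted p = 0.0941). In that model 0 members were called next to 24.8% of all tested genes. Leaving out single libraries ended the CHS call in 2 of 48 fits, those without PHB mock replicate 1 or CNA-KnC3HDZ_8m mock replicate 1, and the FLS1 call in 26 of the 48. After thinning every library to the smallest total, CHS gave −1.27 (adjusted p = 0.138) and FLS1 −2.53 (adjusted p = 0.00397). The other early members were not called, with 0.08 ± 0.16 for CHI, 0.65 ± 0.34 for F3H (adjusted p = 0.162) and −0.05 ± 0.54 for F3'H. The interval for CHI, −0.25 to 0.41, is the narrowest among the members.

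In mock seedlings alone, TT19 was the 1 of 7 tested members called by a test of differences among the 8 lines (adjusted p = 0.0257). That test called 17.9% of all tested genes. TT19 was at 2.52, 0 and 3.12 CPM in mock libraries of CNA-SmHOX32, at 0.427, 2.97 and 0 CPM in CNA-PpHOX32 mock, at 0, 1.21 and 0 CPM in CNA mock, at 0.551, 0 and 0 CPM in CNA-KnC3HDZ mock and at 0 in all 12 mock libraries of the other 4 lines. Groups with no count at all enter this test, and a fitted level there is not a measurement, so no difference between lines is read from it. The TT19 call was lost without CNA-SmHOX32 mock replicate 1 and without the 2 lines named for HOX32. CHI was called as well when PHB mock replicate 3, CNA-PpHOX32 mock replicate 3, CNA-SmHOX32 induced replicate 2 or CNA-PpHOX32 induced replicate 1 was left out, and F3H when PHB induced replicate 3 was.

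Against CNA mock, 0 members were called in any other mock group. Of all tested genes 8.68% were called for CNA-SmHOX32, 4.44% for CNA-KnC3HDZ_8m, 4.08% for PHB, 2.82% for PHB-SDdelta, 1.76% for CNA-PpHOX32, 0.138% for CNA-KnC3HDZ and 0.0529% for CNA-SDdelta. F3H came nearest, in PHB mock, at log2 −3.41 ± 1.08 (adjusted p = 0.0585). Its 3 PHB mock libraries, at 0 to 1.01 CPM, all lay under the 3 CNA mock libraries, at 4.79, 10.3 and 4.18 CPM. DESeq2 called that difference, as did the fit without PHB induced replicate 3. Early gene sums in mock ran from 19.1 ± 10 CPM in PHB (SD, n = 3) to 57.9 ± 20 CPM in CNA-PpHOX32.

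Some further genes of the pathway were better expressed than most members, and others were as low as the late genes. On 4 lists with 44 genes, 30 were tested: all 8 of phenylpropanoid entry, 9 of 16 other enzymes and decoration, 6 of 13 activators and all 7 repressors. The 7 activators that stayed untested were MYB11, MYB111, MYB90, MYB113, MYB114, TT8 and GL3, direct partners or relatives of MYB12 and MYB75, each under 0.19 CPM on average over the 48 libraries. MYB75, MYB90, MYB113 and MYB114 are close copies, among which the counting could split reads. The untested enzymes were UGT78D3, UGT79B1, 5MAT, SAT, AT4G14090, AT1G03940 and AT1G03495, the last 3 being without a symbol in the RefSeq table.

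**Figure D3:**
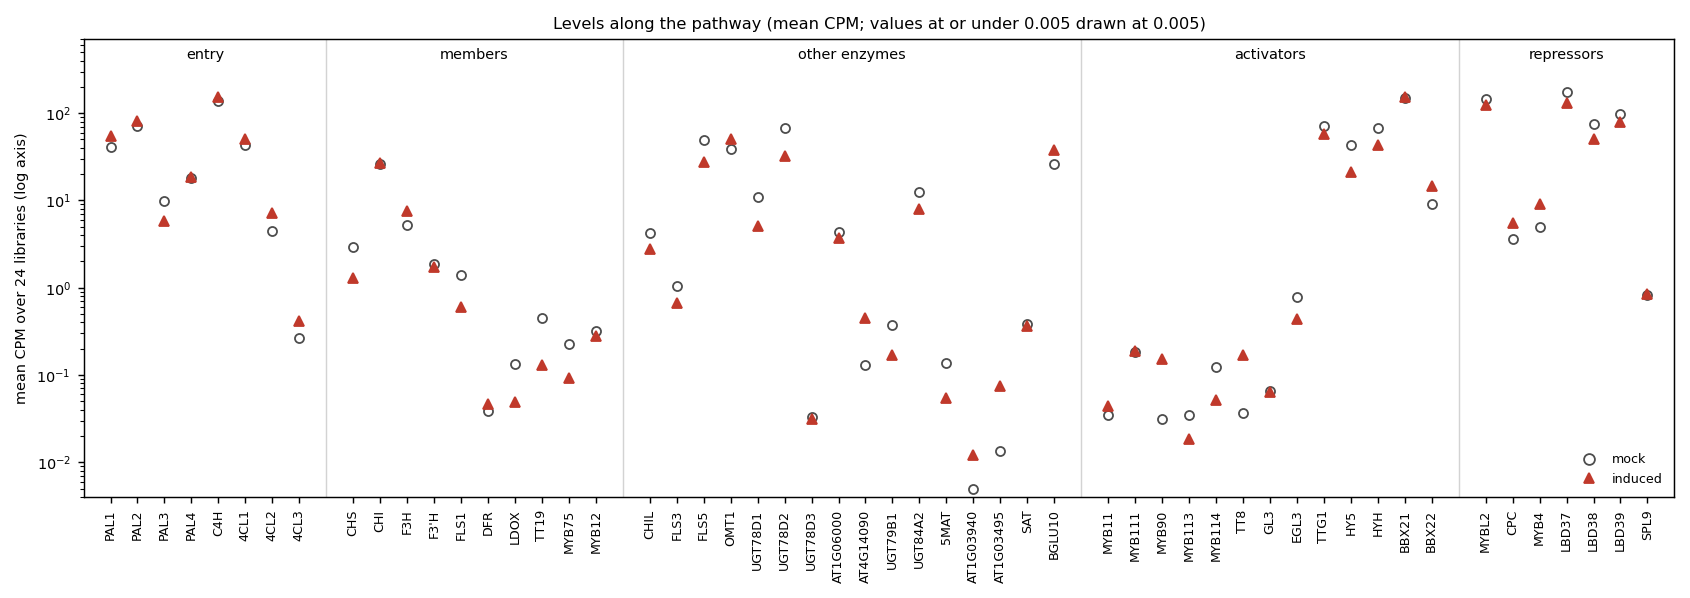
Mean CPM over 24 mock (circles) and 24 induced libraries (triangles) for the members and the 44 other pathway genes, on a log axis, with values at or under 0.005 CPM drawn there. C4H, BBX21 and LBD37 average over 100 CPM, while DFR, MYB11, MYB113 and AT1G03940 lie at or under 0.05 CPM in both treatments.

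UGT78D2, which attaches glucose to flavonols and anthocyanidins, was the pathway gene with the most calls. It stood at 88.8, 68.4 and 90.2 CPM in CNA mock and 13.2, 6.71 and 22 CPM in CNA induced libraries, and at 65, 51.7 and 73.3 CPM in CNA-KnC3HDZ mock and 11.8, 12.2 and 11.8 CPM in its induced libraries. In both lines the groups were far apart. CNA-SDdelta held 66, 89.1 and 68.7 CPM in mock and 36.4, 32.4 and 34.1 CPM in induced libraries, CNA-KnC3HDZ_8m 42.3, 35.5 and 44.9 against 19.8, 22.3 and 11.9 CPM, and CNA-SmHOX32 96.8, 69.7 and 106.2 against 45.1, 28.8 and 40.9 CPM. UGT78D2 fell in all 5, with a log2 difference of −2.53 ± 0.32 for CNA (adjusted p = 2.32e-08) and −2.41 ± 0.31 for CNA-KnC3HDZ (adjusted p = 1.31e-07). It was −1.25 for CNA-SmHOX32 (adjusted p = 0.00318), −1.16 for CNA-KnC3HDZ_8m (adjusted p = 0.00841) and −1.12 for CNA-SDdelta (adjusted p = 0.014).

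In PHB the UGT78D2 groups were also apart, at 33.3, 32.5 and 36.9 CPM in mock and 23, 23 and 19 CPM in induced libraries, without a call (log2 −0.65 ± 0.30, adjusted p = 0.207). PHB-SDdelta (log2 −0.37 ± 0.30) and CNA-PpHOX32 (log2 −0.25 ± 0.29) were not called either, and their groups overlapped. The response differed between PHB and CNA by 1.88 ± 0.43 (SE, adjusted p = 0.00846) and between CNA-PpHOX32 and CNA by 2.28 ± 0.43 (adjusted p = 0.00158). It was not called between CNA-SDdelta and CNA (1.41 ± 0.43, adjusted p = 0.249), and between CNA-KnC3HDZ and CNA it was 0.12 ± 0.43. When the 6 libraries of a line were left out one at a time, the calls for CNA, CNA-KnC3HDZ and CNA-SmHOX32 held in all 6 fits, that for CNA-KnC3HDZ_8m in 5 and that for CNA-SDdelta in 2. The CNA-KnC3HDZ_8m call was lost without induced replicate 3 (UGT78D2 −0.95, adjusted p = 0.1), and the CNA-SDdelta call without induced replicate 1, 2 or 3 or mock replicate 2 (−1.14 to −0.95, adjusted p up to 0.117). Thinning every library ended both calls (adjusted p = 0.139 and 0.104).

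**Figure D4:**
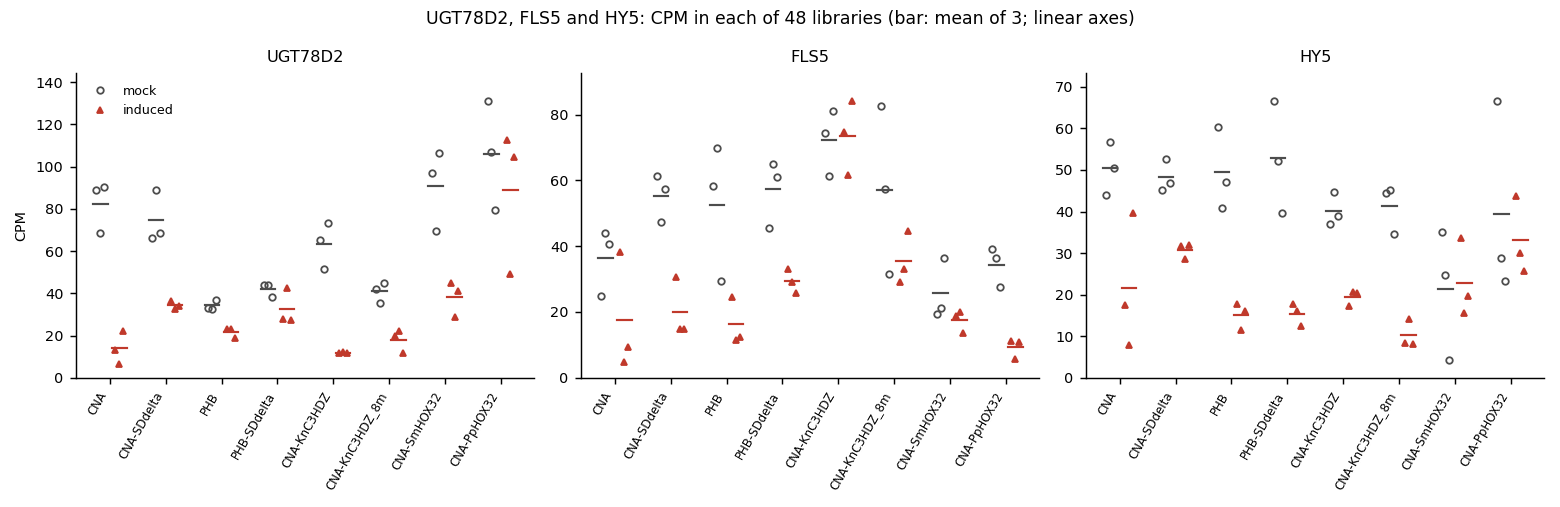
CPM of UGT78D2, FLS5 and HY5 in all 48 libraries by line (open circles mock, red triangles induced, bars the mean of 3 libraries, linear axes). UGT78D2 lies between 6.71 and 22 CPM in CNA induced libraries against 68.4 to 90.2 CPM in mock, and stays between 48.9 and 131.1 CPM in both groups of CNA-PpHOX32.

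FLS5, a homologue of FLS1, fell in 3 lines. It went from 61.3, 47.3 and 57.5 to 30.5, 15 and 14.7 CPM in CNA-SDdelta (log2 −1.46 ± 0.42, adjusted p = 0.0236), from 58.4, 69.7 and 29.3 to 24.5, 11.6 and 12.5 CPM in PHB (−1.67 ± 0.42, adjusted p = 0.00421) and from 39.2, 36.5 and 27.6 to 11.2, 5.65 and 10.9 CPM in CNA-PpHOX32 (−1.87 ± 0.43, adjusted p = 0.00263). The groups were apart in all 3. In CNA-KnC3HDZ it stayed at 72.3 ± 10 CPM in mock and 73.6 ± 11 CPM in induced libraries (SD, n = 3). With single libraries of a line left out, the CNA-SDdelta call held in 2 of 6 fits and the other 2 calls in all 6. It was lost without induced replicate 2 or 3 or mock replicate 1 or 3 (−1.42 to −1.26, adjusted p up to 0.173) and after thinning (adjusted p = 0.11).

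BGLU10, a glucosyltransferase that acts on anthocyanins, rose in CNA-SDdelta (16.2 ± 7.1 to 57.3 ± 4.5 CPM, SD, n = 3, adjusted p = 0.0043) and in PHB-SDdelta (12.9 ± 5.5 to 46.5 ± 9.6 CPM, adjusted p = 0.00257). The first call was lost without CNA-SDdelta mock replicate 3 (log2 1.59, adjusted p = 0.0616). In CNA-KnC3HDZ it stood at 41.3 ± 3.3 CPM in mock and 15.9 ± 4.3 CPM in induced libraries and was not called (adjusted p = 0.058), and its response minus that of CNA was −2.17 ± 0.60 on the log2 scale (SE, adjusted p = 0.0433). BGLU10, like UGT78D2, FLS5, HY5, LBD37 and PAL1, was named by a rule on calls, while UGT84A2, UGT78D1, HYH, BBX22, LBD38, MYBL2, MYB4, C4H and PAL3 were picked after their values were seen. UGT84A2, a glucosyltransferase of sinapate, fell in CNA-SmHOX32 from 24.8 ± 14 to 1.92 ± 1.7 CPM (adjusted p = 0.00172), and was not called with only that line's libraries in the fit (adjusted p = 0.0758).

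Among the activators HY5, the bZIP factor of light signalling, fell in 3 lines. It went from 60.3, 41 and 47.2 to 17.8, 11.4 and 16 CPM in PHB (log2 −1.71 ± 0.44, adjusted p = 0.00498), from 66.6, 52.3 and 39.7 to 17.8, 16 and 12.4 CPM in PHB-SDdelta (−1.78 ± 0.44, adjusted p = 0.00374) and from 44.3, 45.2 and 34.7 to 8.46, 14 and 8.19 CPM in CNA-KnC3HDZ_8m (−2.0 ± 0.45, adjusted p = 0.00126). Groups were apart in these and in 3 more lines, and the 3 calls did not depend on any single library of their line. HYH, the close relative of HY5, fell in CNA-KnC3HDZ from 95.1 ± 5.1 to 23.3 ± 9.2 CPM (adjusted p = 7.03e-05). BBX22, a B-box partner of HY5, rose in CNA-SmHOX32 from 2.9 ± 2.4 to 15 ± 3.9 CPM (adjusted p = 0.0162). That call was lost without mock replicate 3 (log2 1.96, adjusted p = 0.0969) and in the fit of that line alone (adjusted p = 0.369).

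Of the repressors LBD37, which represses anthocyanin genes under nitrogen supply, fell in CNA-KnC3HDZ_8m (156.6 ± 18 to 99.7 ± 14 CPM, adjusted p = 0.0466), CNA-SmHOX32 (264.8 ± 76 to 149.2 ± 26 CPM, adjusted p = 0.00523) and CNA-PpHOX32 (229.3 ± 14 to 137.3 ± 37 CPM, adjusted p = 0.02). The LBD37 call in CNA-KnC3HDZ_8m held in 1 of 6 fits with a library left out, the one without induced replicate 2 (adjusted p up to 0.229 in the others), and not without a filter, with a replicate block within lines (adjusted p = 0.0661) or after thinning. The call in CNA-SmHOX32 was lost without induced replicate 2 (adjusted p = 0.0554) or mock replicate 1 (adjusted p = 0.0806), and that in CNA-PpHOX32 without induced replicate 1 (adjusted p = 0.14) or mock replicate 2 (adjusted p = 0.0657). In the fits of either line alone LBD37 was not called (adjusted p = 0.0868 and 0.188). Its relative LBD38 and the MYB-type repressor MYBL2 fell in CNA-PpHOX32 (adjusted p = 0.00131 and 0.0117). The LBD38 call held in every alternative run, whereas the MYBL2 call was lost without induced replicate 1 (adjusted p = 0.0521), without mock replicate 3 (log2 −0.61, adjusted p = 0.186), after thinning (−0.35, adjusted p = 0.653) and in the fit of that line alone. MYB4, a repressor of C4H, rose in CNA-SmHOX32 from 1.03 ± 1.8 to 18.2 ± 12 CPM (log2 3.98, adjusted p = 0.00977). It was not called without mock replicate 2 (3.51, adjusted p = 0.0565) or mock replicate 3 (3.42, adjusted p = 0.0551) or in the fit of that line alone, and without mock replicate 1, the only mock library with a MYB4 count, the remaining mock libraries are at 0. At the entry of the pathway PAL1, phenylalanine ammonia-lyase, rose in PHB-SDdelta from 17.5, 10.6 and 10.5 to 66.7, 77.3 and 59.4 CPM (log2 2.38 ± 0.43, adjusted p = 4.56e-05), and C4H, the next hydroxylase, rose with it from 80 ± 3.5 to 157.3 ± 16 CPM (adjusted p = 0.000621). PAL3 fell in CNA-KnC3HDZ_8m (log2 −2.75, adjusted p = 0.0152), a call lost without induced replicate 1 (adjusted p = 0.125), induced replicate 3 (adjusted p = 0.0868) or mock replicate 2 (adjusted p = 0.0784) and after thinning (adjusted p = 0.0976).

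By list, and next to the 3.3% to 10.1% of all tested genes called in an induction, phenylpropanoid entry had 2 of 8 genes higher in PHB-SDdelta, 1 of 8 lower in CNA-KnC3HDZ_8m and 0 in the other 6 lines. Among the 9 tested genes on the list of other enzymes and decoration, 1 or 2 fell in every line except PHB-SDdelta, and 1 rose in CNA-SDdelta and in PHB-SDdelta. That list is not of decoration alone, since CHIL, FLS3 and FLS5 are on it. Of 6 tested activators HY5 fell in 3 lines, HYH fell in CNA-KnC3HDZ and BBX22 rose in CNA-SmHOX32. Of 7 repressors 1 fell in CNA-KnC3HDZ_8m, 1 fell and 1 rose in CNA-SmHOX32 and 3 fell in CNA-PpHOX32. In the mean over the 8 lines 28.5% of all tested genes were called. The calls were 6 of 9 genes of other enzymes and decoration (4 lower) and 5 of 7 repressors (4 lower). They were also 4 of 6 activators (3 lower) and 3 of 8 entry genes (1 lower). The median log2 value was −0.85, −0.22, −0.30 and 0.23 in that order, against 0 for all tested genes. UGT78D2 (−1.22, adjusted p = 1.45e-14), FLS5 (−1.03, adjusted p = 5.76e-08) and UGT78D1 (−1.01, adjusted p = 0.0103) were among the 4 lower enzymes, as was the sinapate glucosyltransferase UGT84A2. HY5 stood at −1.07 (adjusted p = 5.56e-08) and LBD37 at −0.40 (adjusted p = 1.19e-05).

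Genes on the photosynthetic, the cold and dehydration, and the root lists also moved with induction in the same libraries. Of all tested genes, 3.3% to 10.1% were called in an induction. All 10 photosynthetic genes were called lower in 5 lines, 9 in PHB-SDdelta, 7 in CNA-SDdelta and 5 in CNA-KnC3HDZ. Their summed level was 20018 to 49220 CPM in mock and 8678 to 28370 CPM in induced libraries. The 8 cold and dehydration genes summed to 1260 to 8715 CPM in mock and 7235 to 38445 CPM in induced libraries, and the 10 root genes, of which 0 to 4 fell in a line, to 438 to 1128 CPM in mock and 282 to 971 CPM in induced libraries. Among the cold and dehydration genes, KIN1, RD29A, COR413PM1 and LTI30 were called higher in 8 lines, and COR47 and ERD10 in 6. RAB18 was called higher in 5 lines and lower in 1, and COR15A higher in 3 and lower in 1. Whether these shifts had a part in the values of CHS, FLS1, UGT78D2 or HY5 was not tested.

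Across the 16 group means on the log2 CPM scale, the genes most like CHS were AT1G07200 (Pearson r 0.88), AT5G54130 (0.88), BGLU6 (0.86), MDAR4 (0.86) and AT5G37360 (0.84), out of 18902 compared. Among the pathway genes r with CHS was 0.71 for UGT78D2, 0.65 for CHIL, 0.57 for F3H, 0.45 for FLS1 and 0.20 for CHI. Of the 11 genes set against F3H, C4H had the highest r, at 0.81. These are descriptions over 16 means that share lines, libraries and depth, and at CHS levels of a few counts they carry the counting error of CHS.

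CHS, F3H and TT19 each overlap a gene on the opposite strand (AT5G13940, AT3G51238 and AT5G17230), and whether counting was by strand is not given in the sources used here. Reads of the overlapping partners cannot be told apart if strand was ignored, so the low values of these 3 members are uncertain in that respect.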

How the data were processed

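QuantSeq 3' libraries of 48 whole-seedling samples were analysed from the deposited count tables, which hold raw counts per gene. Reads were aligned with STAR, per the file headers, and Trimmomatic, featureCounts, DESeq2 and the TAIR10 build are named, per the submitters' processing notes. Versions, annotation, strandedness and whether molecular identifiers were used are not given in the sources used here, so counts may include PCR copies and limits from counts cover counting error only. The sample titles call the replicates biological. Nothing in the labels says that they came from separate batches of seedlings, so p-values measure the spread between these samples.

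The counts were fitted with edgeR 4.0.16 (limma 3.58.1, R 4.3.3): filterByExpr, TMM scaling, 1 mean per group over all 48 libraries, the quasi-likelihood F test and Benjamini-Hochberg adjustment within each of 25 comparisons, with a threshold of 0.05. Of 28496 identifiers 18909 were tested, and 9587, DFR, LDOX and MYB75 among them, did not pass the filter. All adjusted p-values are from this test unless another is named. SE is the log2 difference divided by the root of F. No fold is given where a group has all 3 libraries at or under 3 counts. Replicate pairs differed by more than sampling noise in 48 of 48 pairs (chi-square per degree of freedom 8.94 to 50.0), so none was merged.

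The naming rule outside the members took genes called in at least 2 inductions or, failing that, the gene of a list with the smallest adjusted p, and the 5 most like CHS. Further genes were named after their values were seen, as stated beside them. For DFR no such 5 are given, since no library exceeded 3 counts. The members and lists were chosen with earlier results of these data known. Alternatives were DESeq2 1.42.0, its size factors, other filters, thinning, own-line fits, replicate blocks and leaving out single libraries. Deviations of same-numbered samples were at most weakly correlated (24 pairs, correlations −0.0256 to 0.0774, none over 0.1). The method was tested on simulated data with a smaller spread than these data and with changes only in well counted genes. That test does not show how the method performs for genes as low as most members. Promoters are RefSeq's TAIR10.1.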

Additional observations from a re-analysis of the deposited data

Results flagged for a closer look

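No member met any of the criteria for a closer look, which were an isolated sample in a group of at least 4 or a response that differed between lines by its own test. Groups of 3 were not searched for isolated samples. The responses that differed between lines are those of 8 other pathway genes, with edgeR quasi-likelihood adjusted p-values given. UGT78D2 differed between PHB and CNA (adjusted p = 0.00846) and between CNA-PpHOX32 and CNA (adjusted p = 0.00158). PAL2 differed between PHB and CNA (adjusted p = 0.0135), and UGT84A2 between CNA-SmHOX32 and CNA (adjusted p = 0.0411). BGLU10 differed between CNA-KnC3HDZ and CNA (adjusted p = 0.0433) and between CNA-KnC3HDZ_8m and CNA-KnC3HDZ (adjusted p = 0.003), as did HYH in the latter pair (adjusted p = 0.00314). In the test over all 8 lines UGT78D2 (adjusted p = 4.35e-05), BGLU10 (adjusted p = 0.000103), PAL1 (adjusted p = 0.00253), C4H (adjusted p = 0.0134), PAL2 (adjusted p = 0.0413) and MYBL2 (adjusted p = 0.0458) differed.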

How the results depend on the processing

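The number of members called moved in 8 of 25 comparisons, 2 of them (CNA-SmHOX32 and CNA-PpHOX32) only when a library was left out, and no direction reversed among the values recomputed. In PHB it fell from 1 to 0 with thinned counts, with only that line's libraries and with a replicate block within lines. In CNA-KnC3HDZ it rose from 0 to 1 (CHS) with only that line's libraries. PHB mock against CNA mock gave 1 (F3H) without a filter and with DESeq2. The mean over the lines gave 1 in place of 2 without a filter, with a mean of at least 10 counts and with the replicate block within lines (CHS each time), with thinned counts (FLS1), and, added after seeing the data, without the CNA-SmHOX32 and CNA-PpHOX32 lines (CHS). With 1 shared response, also added, it gave 0. The test of differing responses gave 1 with DESeq2 (F3H). Mock levels gave 3 without a filter (F3H, CHI and TT19) and 0 with a mean of at least 10 counts, with thinned counts and, added, without both HOX32 lines. Leaving out single libraries gave 0 to 1 in PHB, CNA-SmHOX32, CNA-PpHOX32 and PHB mock against CNA mock, 0 to 2 in the mean over the lines and in mock levels, and 0 elsewhere. The replicate block across lines left 1 in PHB, 2 in the mean over the lines and 1 in mock levels. Whether replicate numbers pair these samples is not given in the labels. 11 of 24 samples correlated best with their own number, PHB replicates 1, 2 and 3 among them. The 46 single-gene results recomputed were all calls of the main fit, most of them for genes outside the members. Of their values, 1016 of 1116 with a library left out and 350 of 388 others kept their direction and call. Among members, with a library left out, the F3H call in PHB held in 3 of 6 fits. In the mean over the lines the CHS call held in 46 of 48 fits and the FLS1 call in 22 of 48. The cause of these changes was not tested. The values of CHS, FLS1, F3'H and the late genes rest on few counts.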
